A study of Homo sapiens with 34 samples.

Results

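Full-length CAMTA1 was mapped on chromatin by Flag immunoprecipitation and sequencing (ChIP-seq), and its binding sites were set against control IgG. CAMTA1, the calmodulin-binding transcription activator 1, carries a CG-1 DNA-binding domain near its amino terminus and a calmodulin-binding region near its carboxy terminus, and is best known for its high expression in brain. Its carboxy terminus is the fusion partner of TAZ in TAZ-CAMTA1, the fusion protein of most epithelioid hemangioendotheliomas. The fusion joins TAZ, a coactivator with no DNA-binding domain of its own that is brought to DNA by TEAD factors, to that carboxy terminus. The full-length protein was therefore one of the parents against which the fusion was mapped.

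The members were the peaks of the CAMTA1 list that lay on chromosomes 1 to 22 and X. These were 156 of the 186 CAMTA1 peaks, and of 10414 peaks over all 7 lists of the series. The other 30 CAMTA1 peaks were on unplaced scaffolds. In the control, 4 of 29 EV IgG peaks were on chromosomes.

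All samples were SW872 cells, a human liposarcoma line, so the host was not of the endothelial lineage in which the fusion tumor arises. CAMTA1 cells were stably transduced with Flag-tagged CAMTA1, and EV (empty vector) cells with the vector alone. The CAMTA1 group had 3 Flag immunoprecipitations and 2 inputs, and EV had 2 IgG immunoprecipitations and 2 inputs, among 34 libraries in all. The other 5 constructs, each also with 3 Flag libraries and 2 inputs, were TAZ-CAMTA1, the LATS-resistant mutants TAZ4SA and YAP5SA, full-length TFE3, and the YAP-TFE3 fusion. The sources differ on growth: the labels have CAMTA1 cells taken below confluence and the rest close to it, but the methods of the study give a single, high confluence for every construct, so growth state and construct cannot be told apart if the labels are right. The Flag and IgG arms differ in antibody and in construct at once.

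The reads of all replicates of a construct were pooled by the authors before peaks were called. Each list is therefore a single measurement, and no value has a replicate error. Each peak has a start, an end, a summit (its highest base), a fold enrichment and a −log10 q, where q is the p-value of the summit adjusted for the number of places tested. Fold enrichment is the number of fragments over the summit relative to the local background, with 1 added to both. The fragment number and the background were recovered from fold enrichment and p, and all 156 peaks had a single whole-number solution once a second one, with a background below the lowest of the list, was dropped for 5 of them. Intervals are 95% intervals that cover counting error only.

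CAMTA1 had the fewest peaks of the 6 construct lists, and most rested on few fragments. The highest q in the list was 0.0990, and 142 of the 156 peaks (91.0%) had q below 0.01. Fold enrichment ran from 1.61 to 57.0 with a median of 6.04, against medians of 4.42 to 5.99 in the other construct lists, and −log10 q from 1.00 to 280 with a median of 8.04. The number of fragments over the summit had a median of 22, with 17 and 33.25 at the 25th and 75th percentiles, over 3 pooled libraries. In 68 peaks (43.6%) the summit held 20 fragments or fewer, and in 13 it held more than 50. At that depth a single low peak is known only loosely: the weakest, on chromosome 17 from 53073468 to 53073720 (GRCh37), rested on 11 fragments at 3.73-fold. All 156 peaks together covered 60.5 kb.

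The 3 strongest peaks stood apart from those next in rank, as the plot of fragments by rank shows. The first, on chromosome 19 from 47103917 to 47104535, reached 57.0-fold and −log10 q 280, with 194 fragments (168 to 223, exact Poisson) over a background of 2.42. The second, on chromosome 2 from 47403398 to 47404244, reached 52.3-fold and −log10 q 238, with 167 fragments (143 to 194) over 2.21. The third, on chromosome 14 from 90848967 to 90850029, reached 47.6-fold and −log10 q 210, with 152 fragments (129 to 178) over 2.21. The intervals of neighbours in this order overlapped, and their heights were not tested against each other.

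Below them the height dropped by a factor of 1.73 in a single step. The fourth peak, on chromosome 15 from 25199719 to 25200233, had 88 fragments (70.6 to 108) at 27.7-fold, and its interval did not reach that of the third. The step was picked after ranking on values made from the same fragments, so it is a description and not a test. The top 3 together held 513 of the 4840 summit fragments of the list (10.6%). The chromosome 14 peak was also the widest of all, at 1063 bp, and the chromosome 2 peak was 847 bp wide.

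**Figure D1:**
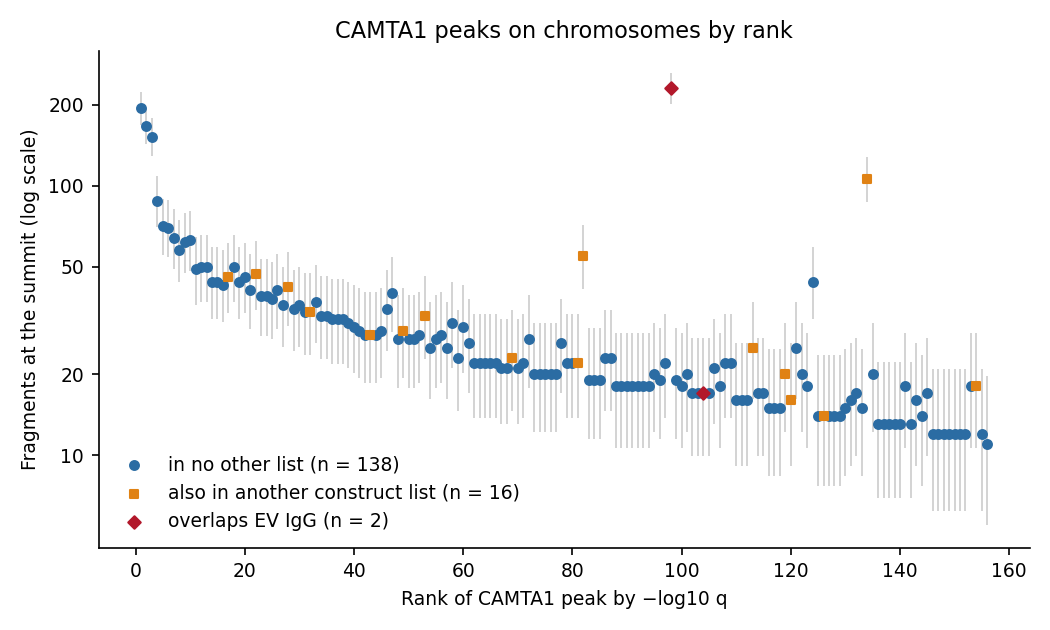
Fragments over the summit (log scale) of the 156 CAMTA1 peaks on chromosomes by rank of −log10 q, with exact Poisson 95% intervals as gray lines, circles for peaks in no other list, squares for peaks also in another construct list and diamonds for those overlapping EV IgG. The top 3 peaks hold 152 to 194 fragments and the fourth 88; the diamond at rank 98, at 230 fragments, lies over a background of 143.

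The supplied annotation was of GRCh38 and the peaks of GRCh37, so no gene was assigned to any peak. Ranks 5 to 10 held 58 to 71 fragments each. On chromosome 14 from 102438663 to 102438987, rank 5 had 71 fragments at 22.4-fold in a width of only 325 bp. Rank 6 was on chromosome 11 from 62623490 to 62623870, with 70 fragments at 20.1-fold. Rank 7, on chromosome 2 from 44588278 to 44589158, had 64 fragments at 20.2-fold over a width of 881 bp.

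These 3 peaks and the 4 above them were the only ones past 20-fold. Rank 8 was on chromosome 2 from 62732782 to 62733263, with 58 fragments at 18.4-fold. Rank 9 was on chromosome 16 from 31191555 to 31192049, with 62 fragments at 14.9-fold over a background of 3.24. Rank 10, on chromosome 13 from 103046871 to 103047371, had 63 fragments at 11.5-fold over a background of 4.58, and was at a lower fold than rank 11, which had 15.6-fold over a background of 2.21.

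The 10 strongest peaks lay on 7 chromosomes, with 3 on chromosome 2 and 2 on chromosome 14. Ranked by fold enrichment in place of q, 9 of the 10 stayed among the top 10, and ranked by fragments 8 did. In the second case the peaks that came in were on chromosomes 10 and 22, at 1.61-fold and 1.72-fold over high backgrounds. Together the 10 held 20.4% of the summit fragments.

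The local background was low for nearly all members. In 76 peaks (48.7%) it was within 0.002 of its lowest value, 2.21 fragments, and the median was 2.31. It was above 4 in 23 peaks and above 10 in 4. The 4 were on chromosome 10 from 135491014 to 135491334 (230 fragments over 143), on chromosome 22 from 18721252 to 18721494 (106 over 61.1), on chromosome 7 from 25081553 to 25081812 (55 over 17.7) and on chromosome 8 from 86747820 to 86748181 (44 over 17.0). Of these 4, the first 3 also lay in another construct list, and the first overlapped EV IgG. Their fold enrichments, 1.61 to 2.99, were all below the median of the list.

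**Figure D2:**
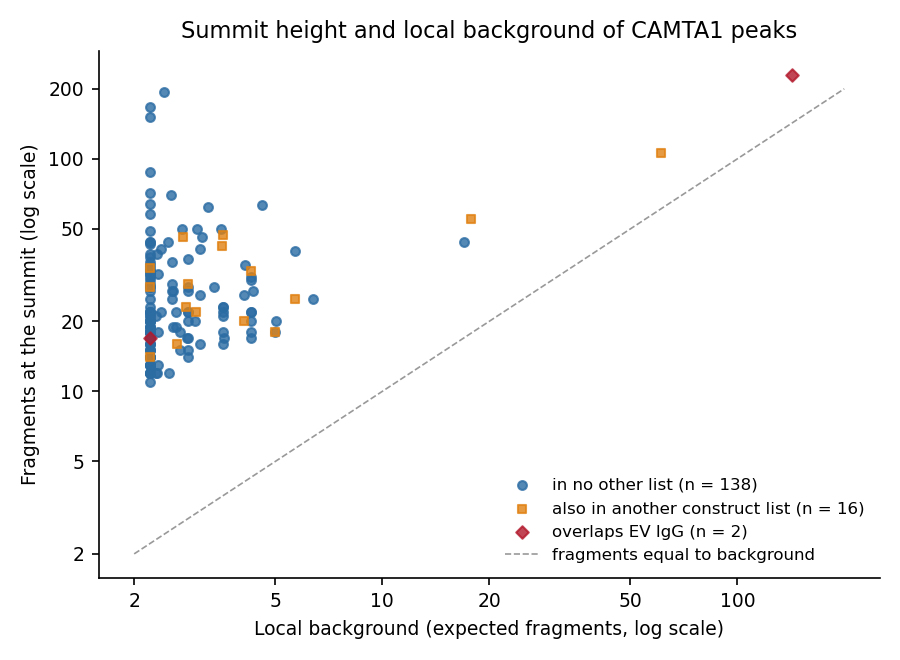
Fragments over the summit against the local background (both log scale) for the 156 CAMTA1 peaks, with the dashed line where both are equal and symbols for peaks in no other list, in another construct list, or overlapping EV IgG. A column of 76 peaks stands at the lowest background of 2.21, and the 4 peaks with a background above 10 lie closer to the dashed line.

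CAMTA1 peaks on chromosomes were nearly all outside the control IgG list. With an overlap of at least 1 bp taken as background, 2 of 156 peaks overlapped EV IgG (1.28%; Wilson interval 0.352 to 4.55%). Over the 6 construct lists together 3 of 9895 peaks did (0.0303%), and the third was a TAZ4SA peak. As the IgG list has only 4 peaks on chromosomes and its depth is unknown, a low overlap was the only outcome it allowed: no more than a few CAMTA1 peaks could have been marked.

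The first of the 2 was the high-background peak on chromosome 10, rank 98, with 1.61-fold enrichment in CAMTA1. The IgG peak there, from 135491008 to 135491334, had 1.67-fold and −log10 q 5.75, with its summit on the same base. The same place was in the TAZ4SA list at 1.79-fold, where it was the sole overlap between the CAMTA1 and TAZ4SA lists.

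The second was on chromosome X from 77359580 to 77359929, rank 104, with 17 fragments at 5.60-fold. Its IgG peak, from 77359373 to 77359824, was stronger than the CAMTA1 peak: 9.16-fold with −log10 q 13.8, its summit 105 bp away. No other construct list had a peak there. The other IgG peaks, on chromosome 1 at 4.31-fold and on chromosome 8 at 2.82-fold, had no CAMTA1 peak over them. From the chromosome 8 IgG peak it was 56.1 kb to the high-background CAMTA1 peak on that chromosome. None of the 78 stronger CAMTA1 peaks overlapped IgG, but with so few overlaps in all nothing about strength can be read from this.

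Most CAMTA1 peaks were in no other construct list. Of 156, 139 overlapped none of the other 5 lists (89.1%; 83.2 to 93.1%), against 44.1% of the 9895 peaks of all 6 construct lists taken the same way. One of the 139 was the IgG-marked peak on chromosome X, which leaves 138 in neither the construct lists nor IgG. The 16 strongest CAMTA1 peaks, the 10 named above among them, were all absent from the other lists.

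The share was higher in CAMTA1 than in each other list, by Fisher's exact test (two-sided, Benjamini-Hochberg adjusted over 5 lists). In TAZ-CAMTA1, 362 of 1184 peaks (30.6%) were in no other list, 58.5 percentage points lower (52.1 to 63.3; Fisher's exact test, adjusted p = 3.46e-46). TAZ4SA had 258 of 1166 (22.1%), lower by 67.0 points (60.6 to 71.6; Fisher's exact test, adjusted p = 7.72e-61). TFE3, the other full-length parent and the list nearest in size, had 57 of 299 (19.1%), lower by 70.0 points (62.4 to 75.7; Fisher's exact test, adjusted p = 1.36e-49).

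The differences from the largest lists were smaller. YAP-TFE3 had 1653 of 3336 peaks in no other list (49.6%), lower by 39.6 points (33.5 to 43.9; Fisher's exact test, adjusted p = 1.71e-24). YAP5SA had 1897 of 3754 (50.5%), lower by 38.6 points (32.5 to 42.9; Fisher's exact test, adjusted p = 1.21e-23). These tests treat peaks as independent and compare 6 lists, not replicated conditions, so their p-values measure no spread between replicates. The shares also depend on each other, since each list was set against a different group of lists and an overlap counts against both lists.

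The TFE3 list is set against its own fusion, YAP-TFE3, and the gap depends on that. With the fusion of each parent left out (an alternative chosen after seeing the data), 141 of 156 CAMTA1 peaks (90.4%) and 197 of 299 TFE3 peaks (65.9%) were in no other list. The difference was then 24.5 points (Fisher's exact test, adjusted p = 2.71e-09). With every list reduced to its 156 strongest peaks it was 30.8 points (Fisher's exact test, adjusted p = 3.99e-13), the smallest of the 5. The order of the lists then turned, with 43.6 points for TAZ-CAMTA1, 55.1 for TAZ4SA, 57.1 for YAP5SA and 57.7 for YAP-TFE3. These constructs all carry the TEAD-binding part of TAZ or YAP, so each was also set against lists of its relatives. No related list was left out for them, and the part of this in their gaps was not tested.

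**Figure D3:**
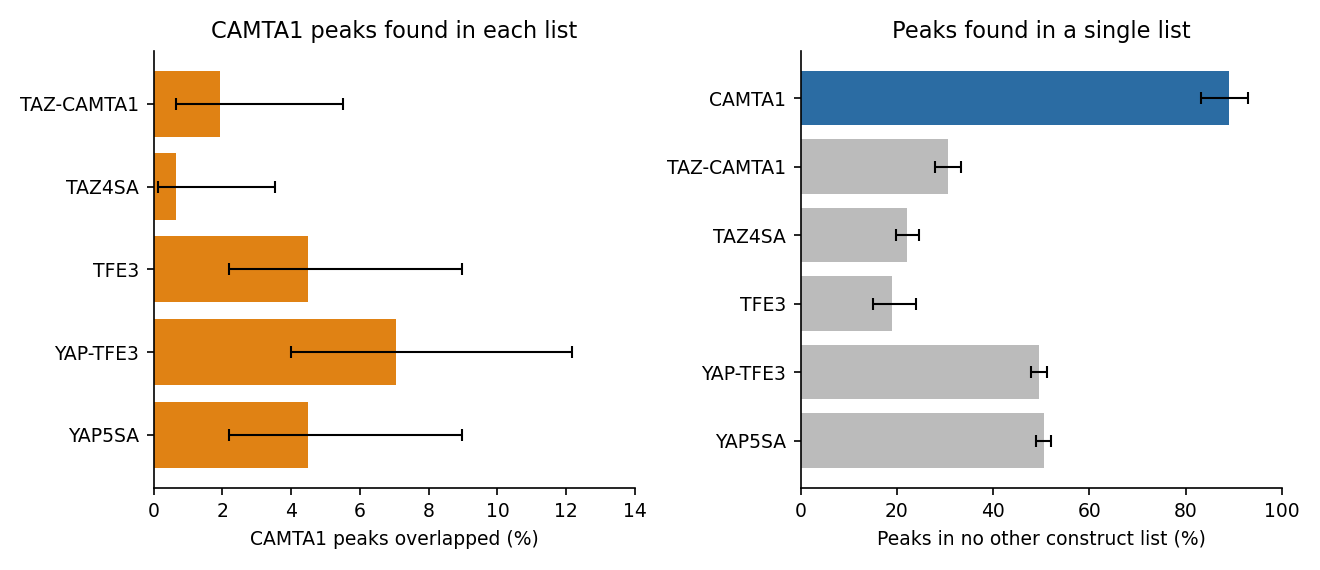
Left, percent of the 156 CAMTA1 peaks overlapped by each other construct list; right, percent of each list's own peaks that overlap no other construct list, CAMTA1 in blue and the others in gray; error bars are Wilson 95% intervals for counting error. CAMTA1 is at 89.1% on the right and the other lists are at 19.1 to 50.5%, while no list overlaps more than 7.05% of the CAMTA1 peaks.

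Absence from a list does not mean that no peak was near. The nearest peak of any other construct was at a median of 116 kb from the 139 peaks, with a range of 0.017 to 9149 kb, and 6 of them had one within 1 kb. Over all members, 120 of 156 (76.9%) had no other construct's peak within 10 kb and 76 had none within 100 kb. These distances were not compared with the other construct lists, so the counts describe CAMTA1 alone. Of the 10 strongest, 9 had none within 10 kb. The exception, rank 8 on chromosome 2, was 0.289 kb from a YAP-TFE3 peak. Rank 2 was 14.6 kb from a YAP5SA peak, rank 1 was 258 kb from a TAZ-CAMTA1 peak, rank 3 was 751 kb from its nearest and rank 4 was 4704 kb from its nearest.

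CAMTA1 and its fusion shared 3 peaks, 1.92% of the CAMTA1 list (0.656 to 5.50%) and 0.253% of TAZ-CAMTA1. The strongest, rank 17, was on chromosome 7 from 104652981 to 104653589. It had 12.6-fold in CAMTA1 with 46 fragments and 15.1-fold in TAZ-CAMTA1 with 52 fragments, with the summits 80 bp apart. It was also the most widely shared member, present in YAP-TFE3 at 13.0-fold, YAP5SA at 6.61-fold and TFE3 at 3.83-fold, and missing from TAZ4SA alone.

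The other pair overlapped no list but that of the fusion. On chromosome 15 from 79165361 to 79165900 CAMTA1 had 9.02-fold and TAZ-CAMTA1 4.10-fold (16 fragments), with summits 64 bp apart. On chromosome 7 from 75987676 to 75988355 CAMTA1 had 4.67-fold and TAZ-CAMTA1 4.16-fold (17 fragments), with summits 5 bp apart. All 3 summit pairs were therefore within 80 bp.

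The overlaps with the other lists were also small. YAP-TFE3 overlapped 11 CAMTA1 peaks (7.05%; 3.98 to 12.2%), TFE3 7 (4.49%; 2.19 to 8.97%) and YAP5SA 7 (4.49%; 2.19 to 8.97%). TAZ4SA overlapped 1 (0.641%; 0.113 to 3.54%). These lists differ in size, and the shares were not tested against each other. With each list reduced to its 156 strongest peaks the order changed, with 2.56% for YAP-TFE3, 1.92% for TFE3, 0.641% for TAZ-CAMTA1 and 0% for YAP5SA and TAZ4SA. As shares of the other list these overlaps were 0.330% of YAP-TFE3, 2.34% of TFE3, 0.186% of YAP5SA and 0.0858% of TAZ4SA. All 7 members in TFE3 were in YAP-TFE3 too.

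By number of lists, 9 shared members were in 1 other list, 5 in 2, 2 in 3 and 1 in 4. After rank 17 the strongest was rank 22, on chromosome 20 from 23342130 to 23342711, at 10.6-fold in CAMTA1, 11.0-fold in YAP-TFE3 and 8.55-fold in TFE3. Next came rank 28, on chromosome 5 from 135372585 to 135373095, at 9.50-fold in CAMTA1 against 4.71-fold in YAP-TFE3 and 4.14-fold in YAP5SA. Rank 126, on chromosome 3 from 57678470 to 57678794, went the other way, at 4.67-fold in CAMTA1, 16.6-fold in TFE3 and 11.0-fold in YAP-TFE3. Overlap did not always mean a common summit: the nearest summits were a median of 102 bp apart for YAP-TFE3 (11 to 553 bp), 133 bp for YAP5SA (1 to 304 bp) and 70 bp for TFE3 (17 to 270 bp).

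Shared members were of about the same strength as the others. Their median −log10 q was 7.59 against 8.07 for the 139, with a median fold enrichment of 5.78 against 6.08. They were wider (median 422 bp against 337 bp), and lay over a higher background (3.53 against 2.21 fragments) with 29 against 22 fragments at the summit. No test was made of these medians, and the part of width and background in the overlap was not tested.

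In the CAMTA1 list sharing showed no clear trend with strength, and 17 shared peaks are too few to settle it. In 4 groups of 39 peaks from strongest to weakest, 4, 4, 4 and 5 peaks were shared, or 10.3% (4.06 to 23.6%) in the first group and 12.8% (5.60 to 26.7%) in the last. The other lists divided the same way had their strongest peaks shared most. In TAZ-CAMTA1 the shared part went from 92.9% in the strongest group through 79.7% and 63.9% to 41.2% in the weakest. In TFE3 it went from 98.7% through 90.7% and 76.0% to 58.1%. These are descriptions, and the trends were not tested against each other.

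CAMTA1 peaks were 240 to 1063 bp wide, with a median of 340 bp and the 25th and 75th percentiles at 274 and 458 bp. The median was the same in TFE3 (340 bp) and near those of YAP-TFE3 (342 bp) and YAP5SA (326 bp), with TAZ4SA at 364 bp and TAZ-CAMTA1 at 397 bp. The narrowest peak was 258 bp in TAZ-CAMTA1 and 256 bp in TAZ4SA, but 198 bp in TFE3 and 196 bp in YAP-TFE3 and YAP5SA. The lists thus start at different widths, and the medians were not adjusted for this. In CAMTA1, 31 peaks were over 500 bp and 5 over 800 bp, while the narrowest width of 240 bp recurred in 3 peaks. Width went with strength: the strongest group of 39 had a median of 501 bp, and the next 3 groups had 324, 327 and 293 bp. Spearman's rho over the 156 peaks was 0.47 between width and −log10 q and 0.45 between width and fragments, as a description only, since both measures come from the same fragments. There were exceptions, such as rank 5 at 325 bp and rank 25, on chromosome 15 from 93374987 to 93375226, at 240 bp with 12.1-fold.

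Summits lay toward the middle of the peak in most of the list, least so in the weakest group. The median distance from the centre was 16.1% of the width, and in 110 of 156 peaks (70.5%; 62.9 to 77.1%) the summit was in the central 50%. Only 7 peaks had it in the outermost 10% at either end. The 2 sides were even, with 80 summits to the left of the centre and 76 to the right. Stronger peaks were more centred. The strongest group had 33 of 39 summits in the central 50%, and the next 3 groups had 31, 26 and 20. Even placement along the width would put 50% of summits there. The weakest group was near that, at a median distance of 23.3% of the width. The 17 shared members had summits further from the centre at the median, 31.1% of the width against 15.7% in the others. They ran from 1.96% to 46.5%, so some were central, and the medians were not tested against each other. Among the 10 strongest the distance ran from 5.08% of the width (rank 8) to 30.2% (rank 6). Over whole lists the median was 12.8% in TFE3, 14.3% in YAP5SA, 14.9% in YAP-TFE3, 19.9% in TAZ-CAMTA1 and 22.1% in TAZ4SA, so CAMTA1 was in the middle of this range.

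**Figure D4:**
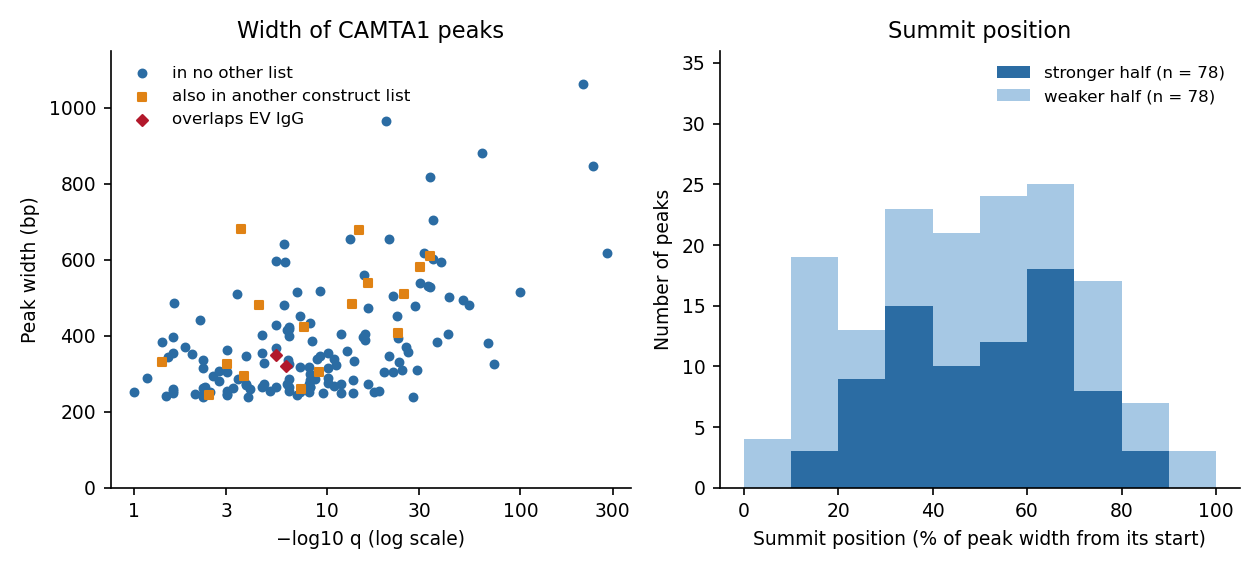
Left, width in bp against −log10 q (log scale) for the 156 CAMTA1 peaks; right, stacked numbers of peaks by summit position in percent of the width from the start, in bins of 10%, for the 78 stronger and 78 weaker peaks. The widest peak, 1063 bp, is rank 3, and 110 of 156 summits lie within the central 50% of the width.

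Binding sites were dispersed over the genome. Peaks were found on 22 of the 23 chromosomes counted. Of 134 gaps between neighbours on a chromosome, the median was 7.76 Mb, 30 were at most 1 Mb and 3 at most 10 kb. The densest place was on chromosome 2, where peaks from 177001122 to 177001435, from 177002795 to 177003111 and from 177003813 to 177004100 followed each other at gaps of 1359 and 701 bp. These peaks had 13, 22 and 22 fragments and ranked 137, 80 and 64. The remaining gap under 10 kb was on chromosome 16, 4256 bp between the peak at 89984285 to 89984736 and the one at 89988993 to 89989671. None of the 10 strongest peaks had a neighbour that close.

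Chromosome 5 held the most peaks, 18 of 156 (11.5%; 7.42 to 17.5%), followed by chromosome 7 with 15, and chromosomes 2 and 16 with 11 each. Set against chromosome length, chromosome 5 had 1.93 times its share (exact Poisson interval 1.14 to 3.04), and against protein-coding genes 2.61 times (1.55 to 4.13). Lengths and gene numbers were those of the supplied GRCh38 annotation by chromosome name. Its 18 peaks were of middling rank, the best being rank 18, and all had q below 0.01. The local background was also higher there, with a median of 3.43 fragments against 2.21 on the other chromosomes, and 15 of the 18 peaks were more than 0.002 above the lowest value. On chromosome 7 the median was 2.79, and 14 of its 15 peaks were above the lowest value in this way. In the other construct lists chromosome 5 held between 8.53% (TAZ-CAMTA1) and 18.4% (YAP5SA) of the peaks, with TFE3 at 12.0%. The part of the background in these numbers was not tested.

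Chromosome 19 was the densest by length, with 9 peaks at 2.98 times its share (1.36 to 5.66), and held the strongest peak. Per gene it was not dense, at 0.781 times (0.357 to 1.48). It held 5.77% of CAMTA1 peaks, and 2.10% (YAP5SA) to 6.02% (TFE3) in the other construct lists, against 1.93% of the length. Chromosome 16 was at 2.37 times by length and 1.64 times by genes. It held 7.05% of CAMTA1 peaks, and 3.78% (YAP5SA) to 6.02% (TFE3) in the other lists, against 2.98% of the length. Chromosome 1, the longest, had only 6 peaks, 0.468 times its length share (0.172 to 1.02), and none was among the 82 strongest. The other construct lists were also below its length share of 8.21%, at 4.89% (TAZ4SA) to 8.03% (TFE3), against 3.85% in CAMTA1. Chromosome 10 had a single peak, the one that overlapped IgG. Chromosome 18 had 0 of 156 peaks, which allows a share of up to 1.92% by the limit of 3 counts and 2.40% by the Wilson interval. The other construct lists had 0 to 1.52% of their peaks there, so no difference from them was detectable at this number of peaks. The chromosome made up 2.65% of the length, above both limits, but 1.33% of the protein-coding genes, below both.

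Across the 23 chromosomes the number of CAMTA1 peaks followed the shares of the other lists more closely than chromosome length. Spearman's rho was 0.33 with length and 0.60 with gene number. It was 0.82 with the share of TAZ4SA peaks, 0.78 with TAZ-CAMTA1, 0.75 with YAP-TFE3, 0.72 with YAP5SA and 0.60 with TFE3. These are descriptions over chromosomes of 1 cell line, whose lists share its genome and its background, although few of the peaks themselves were shared.

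**Figure D5:**
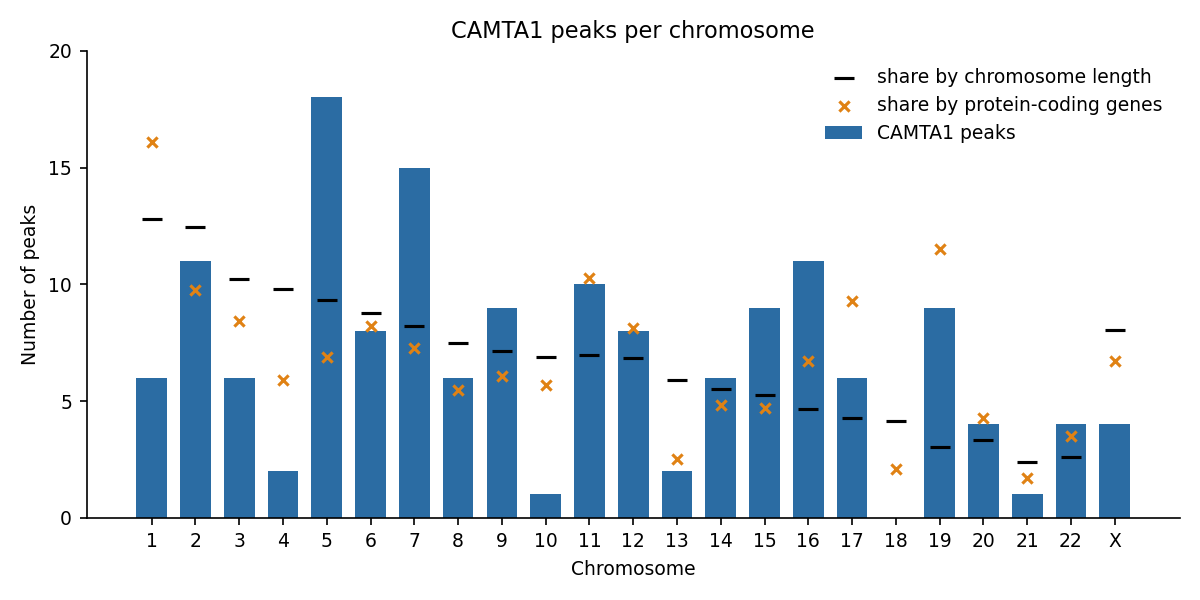
Number of CAMTA1 peaks on each chromosome (bars), with the number that a share by chromosome length (dash) or by protein-coding genes (cross) would give for 156 peaks. Chromosomes 5 and 7 hold 18 and 15 peaks, above both marks, chromosome 1 holds 6, below both, and chromosome 18 holds 0.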

How the data were processed

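SW872 cells expressing Flag-tagged constructs or empty vector were profiled by ChIP-seq. Per the study's methods, the authors pooled reads over replicates, trimmed with Atropos, mapped to GRCh37 with BWA-MEM, removed multi-mapping reads and greylisted regions, and called peaks with macs2. The labels name hg38. In the supplied GRCh38 genome 4 of 156 CAMTA1 peaks, and 45 over all lists, ended past the end of their chromosome, so positions were taken as GRCh37, no coordinate was converted, and gene annotation, sequences and motifs were not analysed here. Which control libraries set the background of each list, and which of a pair of sonicators sheared each library, was not given in the sources used here.

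The deposited fold enrichment is a ratio of summit fragments to local background made by the authors' caller. Each peak's deposited p-value and q-value are −log10 values. The deposited display score was not used. There were 0 sample columns left without a group.

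Peaks were ranked by −log10 q. Fragments and background were recovered as the whole number whose Poisson p and fold enrichment (1 added to both) met the deposited pair within 0.001 of −log10 p. For 5 peaks a second solution with a background below the lowest of the list was dropped. Recovery and overlap counting were tested on simulated data. The simulated recovery did not cover the lowest and highest backgrounds of the list, its lowest fragment numbers, or summits close to background. Overlap meant at least 1 shared bp, and the 5 tests were Fisher's exact tests. Alternatives were reciprocal overlap, gaps, q below 0.01, equal list sizes, scaffolds, other rankings and densities per gene. The 10 strongest peaks, the 3 strongest shared, and all overlapping TAZ-CAMTA1 or IgG were named by rule, and other peaks after their values were seen. The members, lists and tests were chosen with earlier results of these data known. Tools were scipy 1.17.1, statsmodels 0.14.6, matplotlib 3.10.9, numpy 2.4.6 and pandas 2.3.3 under Python 3.11.15.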

Additional observations from a re-analysis of the deposited data

How the results depend on the processing

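No paired analysis was possible because reads of all replicates had been merged before peak calling, and for the same reason no library could be left out. Of 65 alternatives over 19 results, 55 kept the value and 10 moved it. Kept meant within the counting interval for shares and medians, the same direction and side of the threshold for tests, and within 1.5 times for numbers of peaks; the number of peaks was 186 with scaffolds. All 5 differences from other lists kept direction and call in each alternative run. With scaffold peaks included, the share overlapping EV IgG was 9.14%, the share absent from other construct lists 75.3% and the median fold enrichment 5.60. With a gap of up to 10 kb counted as overlap, the absent share was 76.9%, with no such share taken for the other lists. With the other lists reduced to their 156 strongest peaks the absent share was 96.8%, and the overlaps were 0.641% for TAZ-CAMTA1, 0% for TAZ4SA, 1.92% for TFE3, 2.56% for YAP-TFE3 and 0% for YAP5SA. Leaving out the 4 peaks with a background above 10 (chosen after seeing the data) gave an absent share of 90.8%. The densest chromosome was 19 by length and 5 by genes. Recovery of fragments with nothing added to the fold solved 1 of 156 peaks and gave no value. The share of peaks near gene starts was not run, for want of a GRCh37 annotation. Depth limits the low peaks: 26 of 156 rested on 15 fragments or fewer.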

Other observations

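The 30 CAMTA1 peaks on unplaced scaffolds, left out of the report, were unlike those on chromosomes. They lay on 7 scaffolds, at a median fold enrichment of 1.42 (1.14 to 2.38). For the 23 with a single solution, the summit held a median of 474 fragments over a background of 342. Of the 30, 15 overlapped EV IgG (Wilson interval of the share 33.2 to 66.8%), and 29 lay in another construct list, which leaves 1 in no other list. From the other side, 15 of the 25 scaffold peaks of EV IgG overlapped CAMTA1.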
